A study of Mus musculus with 8 samples.

Results

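Immediate early genes are switched on within minutes of a stimulus, before any new protein is made, and many of them answer to the RAS/MAP2K1 pathway. ERK1/2, the kinases that MAP2K1 activates, phosphorylate ETS-type partners of serum response factor on the promoters of these genes, and calcium or cAMP signals reach the same genes through CREB. The genes examined here were the zinc finger transcription factors *Egr1*, *Egr2* and *Egr3*, the orphan nuclear receptors *Nr4a1*, *Nr4a2* and *Nr4a3*, and the genes *Ier2*, *Ier3*, *Btg2* and *Zfp36*. In blood vessels, EGR1 and the NR4A receptors are known to be induced by growth factors such as VEGF. The 10 genes were listed by name, by a rule that uses no measured value. They and the lists set beside them were chosen with earlier results of these data known. All 10 were among the 49315 gene identifiers of the count files and among the 16887 genes past the filter on low counts. They are described across brain endothelial cells (ECs) of mutant and wild-type pups.

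The 4 mutant libraries came from *R26 GT-Map2k1-GFP/+; Tg-Cdh5CreER+/-* pups, which express MAP2K1 (p.K57N), the constitutively active kinase found in arteriovenous malformations, from a CAG promoter at the *Rosa* locus after Cre removes a stop cassette in cells with an active *Cdh5* promoter. The 4 control libraries came from pups labelled wild type, although one table title of the study names a *Tg:Cdh5-CreER* control. Pups of both groups were treated with tamoxifen at P1 and killed at P9, both strains had been backcrossed to C57BL/6J, and the sexes were not given. Brains were digested with collagenase at warm temperature and ECs were pulled out with beads against CD31, so that each library is a bulk of recombined and non-recombined ECs, the recombined ones being a minority by the digital PCR of the study. Libraries held between 24833373 and 34196955 counts on genes. *Map2k1*, whose reads include those of the transgene, had between 12692 and 18734 normalized counts in mutant and between 1506 and 1762 in wild-type libraries, as the labels require. Of the 10 EC markers set for the check, such as *Pecam1* and *Cldn5*, all passed the filter, and their summed normalized counts ranged from 378670 to 455810 in mutant and from 360450 to 441640 in wild-type libraries. By adjusted p, 4 of these markers were lower and 3 higher in mutant libraries, against 22.9% and 21.5% of all genes tested. *Cdh5*, whose promoter drives the Cre, was 2.16-fold and *Pecam1*, which encodes the bead target CD31, 1.44-fold higher. *Kdr* and *Cldn5* fell by 0.59 and 0.47 on the log2 scale (adjusted p of 0.0097 or less by edgeR for each of these genes). The part of these shifts in the results was not tested.

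The upstream sequences of the *Nr4a* genes are shown first, because *Nr4a1* and *Nr4a2* had the largest differences of the 10 genes. RefSeq's promoter table (GRCm38.p6) held 7 of the 10 genes. *Egr1*, *Egr3* and *Ier2* had no window in it and were not searched for any motif. Windows of 250 bases before the start were searched on both strands for the half-site of the cAMP response element (TGACG, the site bound by CREB), its full form (TGACGTCA, which holds a half-site on each strand), the CArG box bound by serum response factor, an ETS core (CCGGAA) and the AP-1 site (TGANTCA). Capitals mark half-sites or full elements, read on either strand, and the letters run 5′ to 3′ on the gene's strand. *Nr4a1* is at chr15:101266596-101266845 (plus strand), *Nr4a2* at chr2:57124004-57124253 (minus strand), *Nr4a3* at chr4:48045055-48045152 (plus strand) and *Btg2*, shown for its full element, at chr1:134079156-134079405 (minus strand).
Nr4a1: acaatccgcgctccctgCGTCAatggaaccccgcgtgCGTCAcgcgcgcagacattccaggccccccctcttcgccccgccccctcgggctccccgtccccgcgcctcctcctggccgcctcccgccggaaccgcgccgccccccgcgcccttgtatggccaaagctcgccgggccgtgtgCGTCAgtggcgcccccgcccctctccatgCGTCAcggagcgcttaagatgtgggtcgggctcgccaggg
Nr4a2: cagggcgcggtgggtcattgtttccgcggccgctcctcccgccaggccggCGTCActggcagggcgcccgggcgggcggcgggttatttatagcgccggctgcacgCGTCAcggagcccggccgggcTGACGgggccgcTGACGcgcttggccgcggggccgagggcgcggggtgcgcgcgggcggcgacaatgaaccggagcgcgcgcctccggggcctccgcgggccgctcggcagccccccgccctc
Nr4a3: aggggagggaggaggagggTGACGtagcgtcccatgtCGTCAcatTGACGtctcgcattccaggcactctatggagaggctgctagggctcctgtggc
Btg2: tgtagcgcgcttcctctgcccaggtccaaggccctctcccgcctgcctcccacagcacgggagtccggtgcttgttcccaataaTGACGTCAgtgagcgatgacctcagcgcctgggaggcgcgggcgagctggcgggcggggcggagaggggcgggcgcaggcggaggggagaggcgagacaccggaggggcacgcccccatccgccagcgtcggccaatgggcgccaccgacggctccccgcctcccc
The 3 *Nr4a* windows each held 4 half-sites. For *Nr4a3* the last of them lies past the gene start of the count files and is not printed. At least 1 half-site was found in 17.7% of the 32817 RefSeq windows and at least 4 in 0.137%. The limit of 4 is the count that the *Nr4a* windows held, so 0.137% is no test of them. All windows were counted, whatever their share of G and C. The part of any of the 5 motifs in the differences was not tested. The full element of *Btg2* occurs in 1.55% of all windows. A CArG box, present in 1.47% of windows, was found before 4 of the 5 listed *Egr2* starts, 3 of which have windows that overlap and share the box, and before the *Zfp36* start. An ETS core, present in 12% of windows, was found in the windows of *Nr4a1*, *Zfp36* and 1 *Egr2* start, and no AP-1 site, present in 6.75% of windows, was found in any of them. None of the 5 motifs was found before *Ier3*.

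Immediate early transcripts were abundant in these ECs. Levels between genes are given per length, as RPKM computed from the TMM-scaled counts and the gene lengths of the count files. In wild-type libraries *Nr4a1* was at 732 ± 116 (SD, n = 4), above 99.9% of the genes tested, and its range did not overlap that of the next gene. It was followed by *Ier2* (290 ± 56.5), *Ier3* (275 ± 38.8), *Egr1* (214 ± 21.0), *Zfp36* (194 ± 42.4) and *Btg2* (188 ± 16.3), whose neighbours in this order overlapped (SD, n = 4 for each). *Nr4a2* (156 ± 4.37), *Egr3* (60.4 ± 8.44), *Nr4a3* (40.3 ± 1.72) and *Egr2* (12.2 ± 1.15) were lower, each apart from the gene before it (SD, n = 4). *Egr2* was the rarest and still above 76.4% of the genes tested. In mutant libraries *Ier3* came first with 298 ± 46.4 (SD, n = 4), and *Nr4a1* fell to the next place with 290 ± 72.7 (SD, n = 4), a pair whose ranges overlapped.

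Between mutant and wild-type ECs, 7 of the 10 genes fell and none rose. The 3 *Nr4a* genes, *Egr2*, *Egr3*, *Ier2* and *Zfp36* had adjusted p under 0.05, and *Nr4a1* and *Nr4a2* also passed the size limit used by the study, a change of more than 1 on the log2 scale. In comparison, 22.9% of all genes tested were lower and 21.5% higher by adjusted p alone, while 8.05% were lower and 5.90% higher by both limits. For the same 7 genes every mutant library was below every wild-type library, which held for 21.9% of all genes (20.6% had every mutant library above). The median log2 fold change was -0.70 over the 10 genes and -0.02 over all genes tested. The test was edgeR's quasi-likelihood test, adjusted by Benjamini and Hochberg over 16887 genes. Since these are bulk libraries, fewer cells that express a gene and less RNA per cell cannot be told apart. Recombined ECs were a minority, while *Nr4a1* was at 39.7% and *Nr4a2* at 48.0% of the wild-type level in the fit. The part of recombined and of non-recombined ECs in the falls was not tested. By its methods, the study drew as many wild-type as mutant pups from each litter. These methods name no litter term for its own comparison, and the one here had none. With the replicate number or the shared start of the sample descriptions entered as a block, 9 of the 10 genes fell by adjusted p, *Egr1* and *Btg2* being added, and 2 still passed both limits.

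**Figure D1:**
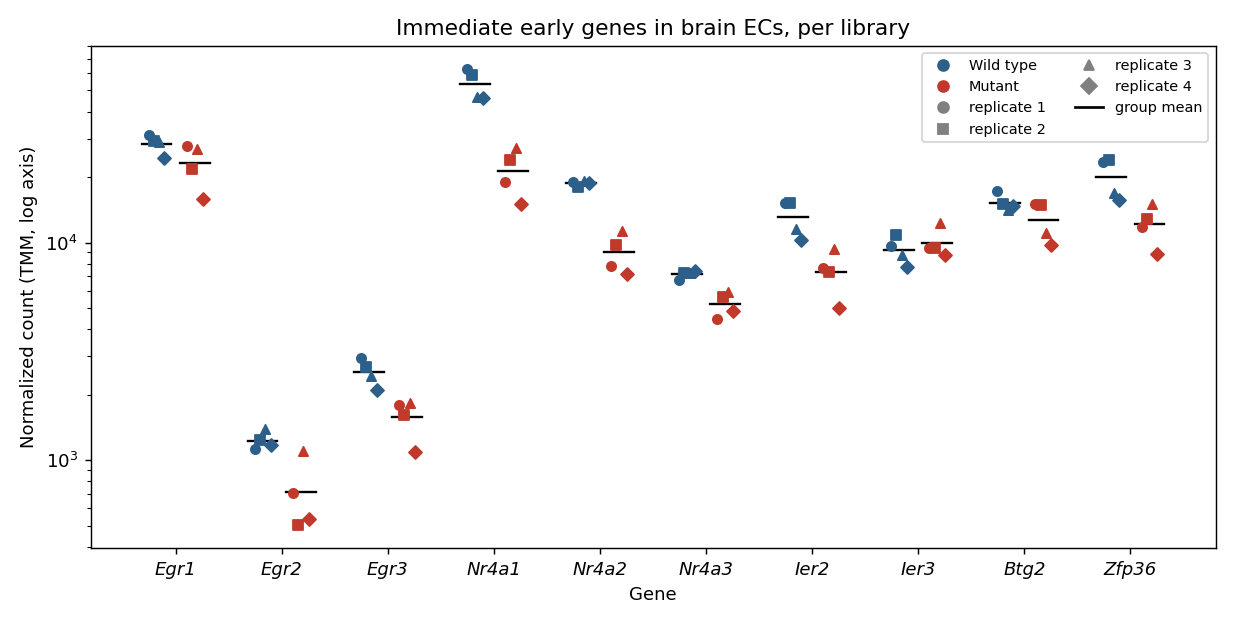
Normalized counts (TMM-scaled at the mean library size, log axis) of the 10 genes, with each library as a point, the replicate as its shape and the group mean as a black line. Wild-type points are blue and mutant points red, and the groups lie apart for the *Nr4a* genes, *Egr2*, *Egr3*, *Ier2* and *Zfp36*.

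*Nr4a1* (ENSMUSG00000023034), on chromosome 15 of GRCm38 from 101266846 to 101274792, encodes NUR77, an orphan receptor that binds DNA without a known hormone. Its normalized counts were 19061, 24001, 27168 and 15084 in mutant libraries 1 to 4 and 62918, 59052, 46793 and 46301 in wild-type libraries 1 to 4. All mutant values were well under the lowest wild-type value, and the wild-type libraries themselves split into a higher and a lower pair. Means were 53766 ± 8486 in wild-type and 21329 ± 5335 in mutant ECs (SD, n = 4 each). The fitted difference on the log2 scale was -1.33 with a standard error of 0.18 (adjusted p = 2.37e-04 by edgeR), or 2.52-fold lower. With each library left out in turn it stayed between -1.46 and -1.18.

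*Nr4a2* (ENSMUSG00000026826), on chromosome 2 from 57106830 to 57124003, encodes NURR1, best known for its role in dopamine neurons. It had 7762, 9789, 11323 and 7153 normalized counts in mutant libraries 1 to 4 and 18962, 18033, 19264 and 18862 in wild-type libraries. The wild-type values were close together and the mutant values were spread more widely below them. On the log2 scale the gene fell by 1.06 with a standard error of 0.13 (adjusted p = 1.53e-04 by edgeR), or 2.09-fold lower. It came to -0.97 without mutant replicate 1 and -0.94 without mutant replicate 4, both short of the limit of 1, with adjusted p under 0.05 in each.

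*Nr4a3* (ENSMUSG00000028341), on chromosome 4 from 48045153 to 48086447, encodes NOR1, the third receptor of the family. Mutant libraries 1 to 4 had 4454, 5598, 5936 and 4823 normalized counts and wild-type libraries 6706, 7274, 7251 and 7388. The groups did not overlap, but they lay nearer to each other than for the other *Nr4a* genes. In the fit, the gene fell by 0.46 on the log2 scale, with a standard error of 0.09 (adjusted p = 0.0029 by edgeR), which is 72.7% of the wild-type level. *Nr4a1* supplied 78.6% ± 2.94 (SD, n = 4) of the family's counts per length in wild-type and 73.4% ± 2.00 (SD, n = 4) in mutant libraries, while *Nr4a3* supplied 4.40% ± 0.67 and 7.59% ± 1.16 (SD, n = 4).

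*Egr1* (ENSMUSG00000038418), on chromosome 18 from 34859823 to 34864984, is the classical ERK-induced gene of the family. Its normalized counts were 27861, 21700, 27021 and 15889 in mutant libraries 1 to 4 and 31111, 29410, 28999 and 24558 in wild-type libraries. The groups overlapped, with mutant libraries 1 and 3 above the lowest wild-type library. Its log2 fold change of -0.30, with a standard error of 0.16, did not pass the test (adjusted p = 0.152 by edgeR), and its 95% interval ran from -0.66 to 0.05. With a block for the replicate number or for the label prefix, the difference passed, at -0.33 (adjusted p = 0.0243 by edgeR) and -0.33 (adjusted p = 0.0283 by edgeR).

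*Egr2* (ENSMUSG00000037868), on chromosome 10 from 67535475 to 67542188, is known for its role in Schwann cells and the hindbrain. It had 705, 501, 1099 and 534 normalized counts in mutant libraries 1 to 4 and 1122, 1235, 1389 and 1173 in wild-type libraries. Mutant library 3 lay just under the wild-type range and the other mutant libraries far below it. On the log2 scale the gene fell by 0.79 with a standard error of 0.22 (adjusted p = 0.0129 by edgeR). Without mutant replicate 3 it was -1.08, past the limit of 1.

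*Egr3* (ENSMUSG00000033730), on chromosome 14 from 70077445 to 70080157, is a relative that binds the same GC-rich site. Mutant libraries 1 to 4 had 1801, 1607, 1833 and 1088 normalized counts and wild-type libraries 2935, 2687, 2429 and 2108. Mutant library 4 was the lowest and the groups lay apart. In the fit, the gene fell by 0.68 on the log2 scale, with a standard error of 0.16 (adjusted p = 0.00573 by edgeR). Of the counts per length of the family, *Egr1* held 74.7% ± 0.475 (SD, n = 4) in wild-type and 79.5% ± 0.876 (SD, n = 4) in mutant libraries.

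*Ier2* (ENSMUSG00000053560), on chromosome 8 from 84661331 to 84662852, is a small nuclear protein gene of the immediate early response. It had 7624, 7353, 9371 and 5004 normalized counts in mutant libraries 1 to 4 and 15229, 15270, 11584 and 10265 in wild-type libraries. As for *Nr4a1*, wild-type libraries 1 and 2 were above 3 and 4. On the log2 scale the gene fell by 0.83 with a standard error of 0.19 (adjusted p = 0.00475 by edgeR).

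*Zfp36* (ENSMUSG00000044786), on chromosome 7 from 28376784 to 28380253, encodes tristetraprolin, which binds AU-rich elements and speeds the decay of short-lived transcripts. Its normalized counts were 11830, 12844, 14981 and 8833 in mutant libraries 1 to 4 and 23493, 24057, 16885 and 15646 in wild-type libraries. The highest mutant library, 3, lay only a little under the lowest wild-type library. In the fit, the gene fell by 0.72 on the log2 scale, with a standard error of 0.18 (adjusted p = 0.0084 by edgeR). The gene overlaps *Gm44710* on the other strand, which had at most 30 counts in any library.

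*Btg2* and *Ier3* did not pass the test. *Btg2* (ENSMUSG00000020423), an antiproliferative gene on chromosome 1 from 134075170 to 134079120, had 15111, 14815, 11057 and 9738 normalized counts in mutant libraries 1 to 4 and 17184, 15007, 14118 and 14796 in wild-type libraries. Mutant libraries 1 and 2 lay within the wild-type range and 3 and 4 below it. Its log2 fold change was -0.27 (95% interval -0.58 to 0.04, adjusted p = 0.145 by edgeR), and it passed with the replicate number (adjusted p = 0.0404 by edgeR) or the label prefix (adjusted p = 0.0289 by edgeR) as a block.

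*Ier3* (ENSMUSG00000003541), on chromosome 17 from 35821684 to 35822923, encodes a regulator of cell survival that is itself a substrate of ERK. It had 9485, 9414, 12292 and 8802 normalized counts in mutant libraries 1 to 4 and 9656, 10802, 8750 and 7746 in wild-type libraries. The groups overlapped throughout, with mutant library 3 the highest of all. Its log2 fold change of 0.11 was the only one above 0 among the 10 genes (95% interval -0.17 to 0.40, adjusted p = 0.493 by edgeR).

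**Figure D2:**
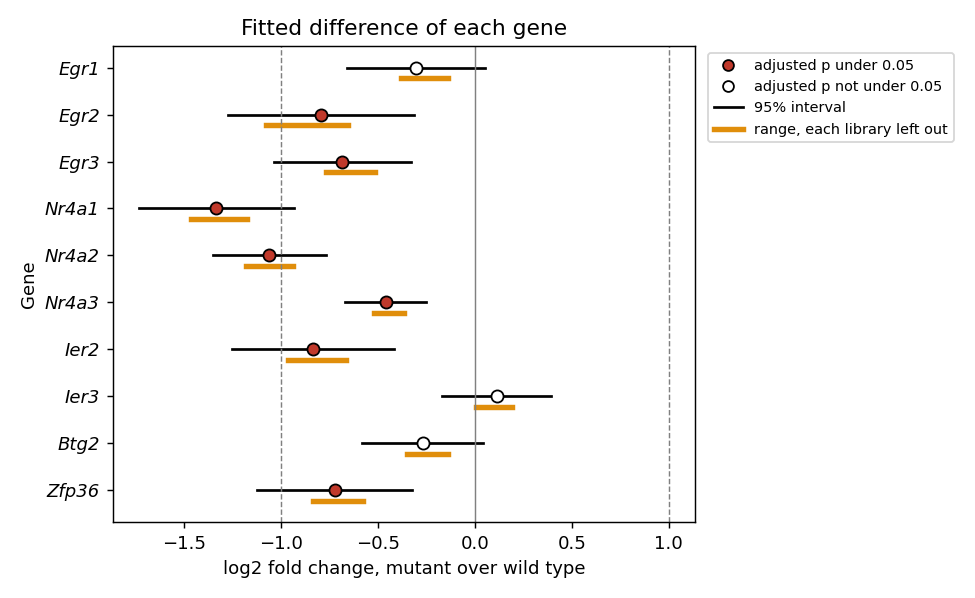
Fitted log2 fold change of each gene (points, mutant over wild type) with its 95% interval (black) and its range with each library left out in turn (orange), where dashed lines mark the limit of 1. Filled points had adjusted p under 0.05, and *Ier3* at 0.11 is the only point right of 0.

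Ratios between genes of the same family or group were taken within each library, since they do not depend on the scaling between libraries. In 5 of 12 ratios the groups lay apart, with p = 0.0286 in an exact two-sided permutation test, the smallest p that 4 libraries against 4 allow. After Benjamini-Hochberg adjustment over the 12 ratios, none passed (adjusted p = 0.0686 for each of the 5, exact permutation test). With only 5 of 12 ratios at the smallest p, no adjusted p could fall under 0.05. The adjusted test thus cannot decide whether these ratios differ, and the ratios share genes. *Nr4a1* relative to *Nr4a3* was lower by a log2 difference of -0.89 and *Nr4a2* relative to *Nr4a3* by -0.62. *Ier2* relative to *Ier3* differed by -0.96, *Ier3* relative to *Zfp36* by 0.84 and *Egr1* relative to *Egr3* by 0.37. The ratio of *Nr4a1* to *Nr4a2* differed by -0.27 with adjusted p = 0.156 in the exact permutation test. *Ier2* and *Zfp36* kept a ratio with an SD of only 0.05 in wild-type and 0.09 in mutant libraries on the log2 scale (n = 4 each).

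**Figure D3:**
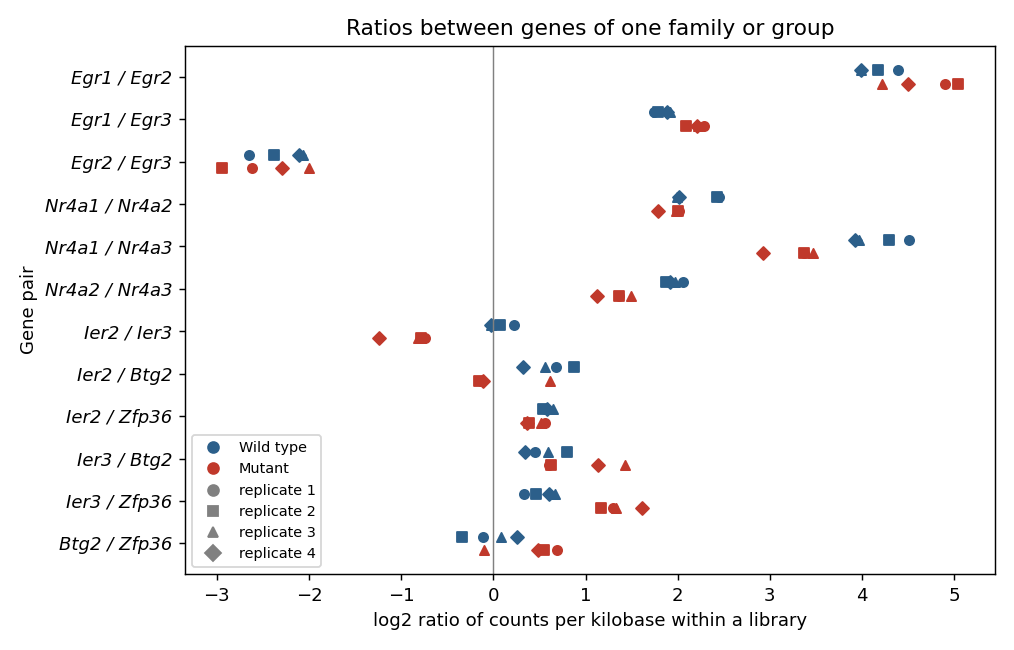
Ratio of counts per kilobase between 2 genes within each library, on a log2 axis, for the 12 pairs within the *Egr* family, the *Nr4a* family and the other 4 genes. Blue points are wild-type and red points mutant libraries, and the groups lie apart in 5 pairs, such as *Nr4a1* over *Nr4a3* and *Ier2* over *Ier3*.

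Within the groups, the same libraries were often at the ends of the range. Mutant library 4 was the lowest mutant library for 8 of the 10 genes and mutant library 3 the highest for 8. In the wild-type group, library 4 was the lowest for 6 genes. The SD of log2 CPM about the group means lay between 0.14 for *Nr4a3* and 0.38 for *Egr2*, with a median of 0.20 over all genes tested. That median covers genes of every level past the filter and was not matched to the levels of the 10 genes.

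The sample descriptions begin with 3 prefixes, each of which holds libraries of both genotypes, and what the prefixes stand for is not given. Each holds as many mutant as wild-type libraries, but no label ties a library to a litter. Within the prefix of replicates 1 and 2, all 10 genes had a lower mean in mutant libraries, with a median log2 ratio of -0.83. For the prefix of replicate 3, 9 of 10 were lower with a median of -0.32, and for that of replicate 4, 9 of 10 with a median of -0.89. *Nr4a1* differed by -1.50, -0.78 and -1.62 in the 3 prefixes and *Nr4a2* by -1.08, -0.77 and -1.40. *Egr1* differed by -0.29, -0.10 and -0.63. *Ier3* was the gene on the other side of 0, at -0.11, 0.49 and 0.18. The prefixes of replicates 3 and 4 hold 1 library of each genotype and give no test of their own.

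**Figure D4:**
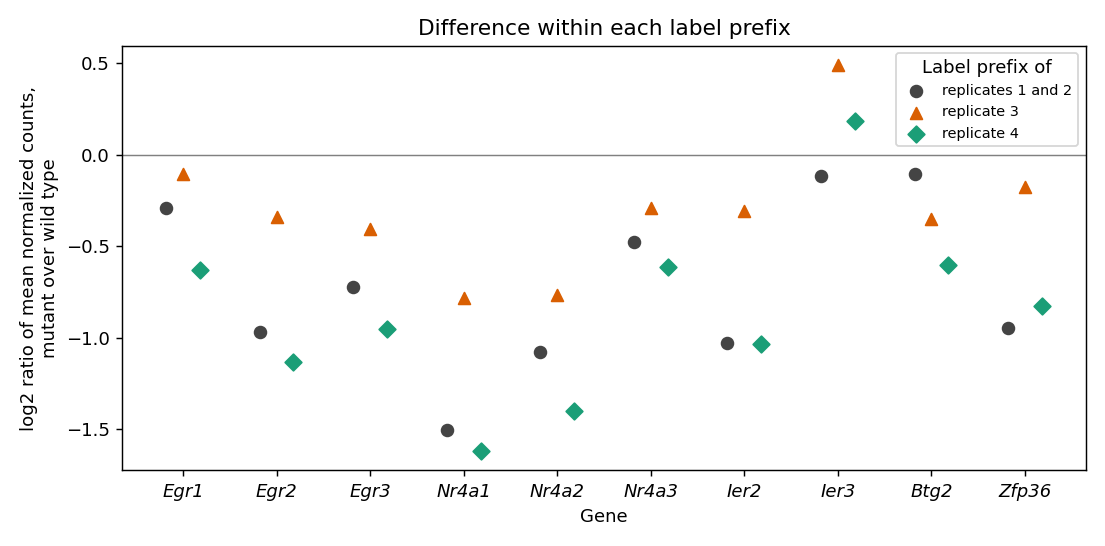
Log2 ratio of mean normalized counts, mutant over wild type, within each label prefix, for replicates 1 and 2 (circles), 3 (triangles) and 4 (diamonds). Apart from *Ier3*, all points lie below 0, and the triangles of replicate 3 are the nearest to 0 for most genes.

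Relatives and partners of the 10 genes were set beside them. Of 14 family relatives 13 were tested, and by adjusted p 6 fell and 2 rose (median log2 fold change -0.21). Of all genes tested, 22.9% fell and 21.5% rose by the same limit. *Tob1*, an antiproliferative relative of *Btg2*, fell from 8399 ± 448 to 3502 ± 997 normalized counts (SD, n = 4; log2 fold change -1.26, adjusted p = 2.03e-04 by edgeR), and *Ier5l* fell by 1.14 on the log2 scale (adjusted p = 1.03e-04 by edgeR). The 2 that rose were *Nab1* (log2 fold change 0.44, adjusted p = 1.94e-04 by edgeR) and *Nab2* (0.39, adjusted p = 0.00252 by edgeR), both corepressors that bind EGR proteins and named after their values were seen. *Zfp36l1* and *Btg1*, the most abundant relatives past neither limit, had log2 fold changes of -0.16 and -0.21.

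Of 38 other immediate early genes, 22 fell and 7 rose by adjusted p, against 22.9% and 21.5% of all genes tested. The list median was -0.44 on the log2 scale. *Klf2* and *Klf4*, transcription factors induced by laminar flow in endothelium, fell 3.29-fold and 2.64-fold, and *Ccn1*, a matricellular protein gene, fell 2.68-fold (adjusted p = 4.38e-05, 1.01e-04 and 2.12e-04 by edgeR). *Npas4*, normally a neuronal gene, had the lowest log2 fold change of the list (-2.76, adjusted p = 0.0192 by edgeR) from only 69.9 ± 62.8 normalized counts in wild-type libraries (SD, n = 4), and its groups overlapped. *Fosb* and *Junb*, the most abundant genes of the list short of the limit of 1, fell by 0.78 and 0.63 on the log2 scale (adjusted p = 0.00171 and 0.0272 by edgeR). The largest rises were those of *Ptgs2*, the inducible cyclooxygenase (3.12-fold), *Myc* (2.30-fold), *Ccn2* (2.18-fold) and *Errfi1*, a feedback inhibitor of the EGF receptor (2.10-fold), each with adjusted p of 9.16e-05 or less by edgeR.

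The list of ERK feedback regulators and delayed ERK targets moved the other way, with 10 of 15 genes higher, 4 lower and a median log2 fold change of 0.81. By adjusted p, 21.5% of all genes tested were higher and 22.9% lower. The ETS factor *Etv4* rose 19.4-fold from 74.8 ± 10.4 to 1454 ± 229 normalized counts (SD, n = 4; adjusted p = 1.27e-07 by edgeR). *Spred3* rose 3.07-fold, *Emp1* 2.54-fold and the ERK phosphatase gene *Dusp4* 2.14-fold (adjusted p of 4.17e-04 or less by edgeR). *Dusp6*, a phosphatase that ERK induces, and *Ccnd1* fell by 0.41 and 0.56 on the log2 scale (adjusted p = 0.00886 and 0.00293 by edgeR). Among 17 kinases and transcription factors that act upstream of immediate early genes, 13 did not pass the test and none passed the limit of 1. By adjusted p 1 fell and 3 rose, where 22.9% of all genes tested fell and 21.5% rose. *Srf*, which encodes serum response factor, fell by 0.37 on the log2 scale (adjusted p = 0.00493 by edgeR), while *Elk3* (0.37), *Mef2c* (0.46) and *Rps6ka2* (0.53) rose with adjusted p of 0.00629 or less by edgeR, and these 4 were named after their values were seen. *Mef2a* and *Rps6ka3*, the most abundant of the list, had log2 fold changes of 0.07 and 0.17.

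**Figure D5:**
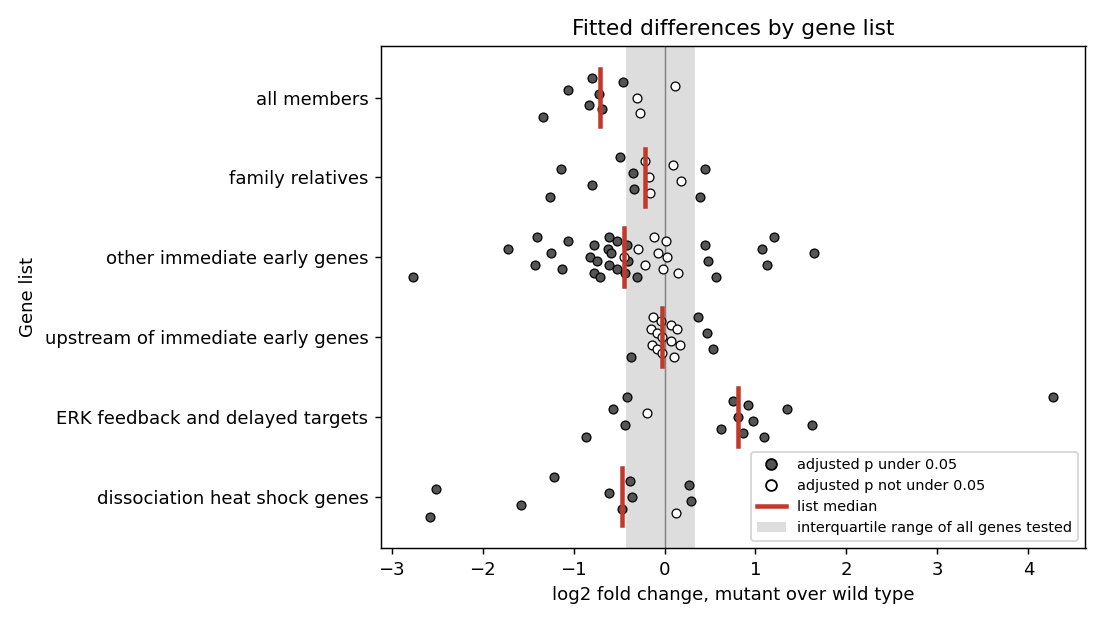
Log2 fold changes (mutant over wild type) of each tested gene in 6 lists, where filled points had adjusted p under 0.05, red lines are list medians and the grey band is the interquartile range of all genes tested. The medians are -0.70 for the 10 genes, -0.44 for other immediate early genes and 0.81 for ERK feedback and delayed targets.

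Heat shock genes, which tissue dissociation can induce along with immediate early genes, were lower too. Of 11 such genes 8 fell and 2 rose by adjusted p, against 22.9% and 21.5% of all genes tested. The list had a median of -0.47 on the log2 scale. *Hspa1b* and *Hspa1a*, near-identical copies between which reads could be split, fell 5.96-fold and 5.70-fold, *Hspb1* 2.99-fold and *Hsph1* 2.33-fold (adjusted p of 6.05e-04 or less by edgeR). *Hsp90ab1*, the most abundant, rose by a log2 fold change of 0.27 (adjusted p = 0.0183 by edgeR) and *Hspa8* had 0.12. The summed normalized counts of the 11 genes ranged from 206560 to 232520 in mutant and from 210040 to 253330 in wild-type libraries, ranges that overlap. Most of this sum came from *Hsp90ab1* (means of 107700 in mutant and 89514 in wild-type libraries) and *Hspa8* (66857 and 61343). For the 8 genes that fell, every mutant library was below every wild-type library (21.9% of all genes). For the 2 that rose, every mutant library was above (20.6% of all genes). The part of handling in the lower immediate early genes was not tested.

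Markers of other cells also differed. By adjusted p, 22.9% of all genes tested were lower and 21.5% higher. All 6 oligodendrocyte lineage markers fell, and their sum ranged from 965 to 1861 normalized counts in mutant and from 2950 to 7965 in wild-type libraries. All 6 red blood cell markers fell (2648 to 8529 against 15883 to 27551), as did 4 of the 7 neuron markers tested of 8 (628 to 877 against 1033 to 1751). Of 5 astrocyte markers 1 fell and 1 rose, with sums of 18299 to 22005 in mutant and 10625 to 12611 in wild-type libraries, most of them on *Gja1*, which ECs express too. None of 7 microglia and macrophage markers passed the test, with sums of 2541 to 9332 in mutant and 3063 to 11783 in wild-type libraries, and 1 of 7 pericyte and smooth muscle markers rose (14579 to 29965 against 18254 to 33964). Of 4 fibroblast markers, which share *Pdgfra* with the oligodendrocyte list, 1 fell and 2 rose (15431 to 19555 against 11833 to 17034), and of 5 neutrophil and lymphocyte markers tested of 7, 2 fell (303 to 512 against 444 to 868). No marker was at 0 in all libraries. For scale, the 10 immediate early genes summed to between 76949 and 122080 normalized counts in mutant and between 148840 and 189320 in wild-type libraries, and the part of other cells in their difference was not tested.

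Genes whose pattern over the 8 libraries was nearest were found by the root mean square difference of log2 CPM, after each gene's mean was subtracted, among 9469 genes with a mean of at least 3 on that scale. The nearest to *Egr1* were *Socs3* (0.08), *Slc2a8* (0.09), *Ppp1r21* (0.10), *Hapln3* (0.10) and *Zfp36l2* (0.11). Those nearest to *Nr4a1* were *Rdm1* (0.09), *Cbfa2t3* (0.09), *Fos* (0.10), *Klf4* (0.11) and *Tcf7* (0.11), so that both sets hold other immediate early genes, *Socs3* in the first and *Fos* and *Klf4* in the latter. The mean profile of the 10 genes was nearest to those of *Foxred1* (0.05), *Itpk1* (0.06), *Ctps2* (0.07), *Tsc22d2* (0.07) and *Hhex* (0.07). None of these genes is on the list of other immediate early genes. The profiles include the difference between the groups, so genes with a like fold change tend to lie near.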

How the data were processed

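Poly(A) RNA of brain ECs isolated with CD31 beads at P9 was sequenced, 1 library for each of 4 mutant and 4 wild-type pups. The authors trimmed reads with Trimmomatic, aligned them to GRCm38 with STAR and deposited raw counts per gene, 1 set per library. The counting program, its annotation and its use of strand are not given in the sources used here, so overlapping genes are uncertain. A further deposited table of normalized values was not used. Symbols came from the GENCODE vM21 gene table (48970 of 49315 identifiers), and older names were matched through RefSeq.

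Counts were filtered with filterByExpr (minimum count 10), scaled by TMM and compared with the quasi-likelihood test of edgeR 4.0.16 in R 4.3.3, with no covariate. The limits were an adjusted p of 0.05 and an absolute log2 fold change of 1. Normalized counts are counts divided by the TMM-scaled library size and brought to the mean of these sizes. Standard errors and 95% intervals were derived from the F statistic, which is approximate. Log2 CPM used a prior count of 2. Within-group pairs of libraries differed beyond sampling noise (chi-square per degree of freedom 7.3 to 41.6), so none is a mere resequencing of another. The closest pair was wild-type libraries 1 and 2. That each library came from its own pup rests on the study, since this check cannot show it. Libraries held 24833373 to 34196955 counts, and *Egr2*, the rarest of the 10 genes, had 501 or more normalized counts in each.

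On simulated data for these 16887 genes, 16463 unchanged ones passed the filter. An adjusted p under 0.05 by edgeR was found for 97 of 100 genes changed by 1 on the log2 scale. It was found for 100 of 100 changed by 2 and for 7 unchanged genes. Of the 100 genes changed by 1, only 46 passed both limits. The simulation gave every gene the same dispersion and held no litter effect. Its changed genes were drawn from those with higher counts. The genes and lists were chosen with earlier results of these data known. Besides the 10 genes, up to 4 genes past both limits in each direction and the 2 most abundant others were named per list. The alternatives were DESeq2 1.42.0, other scalings and filters, the replicate number or label prefix as a block, and each library left out.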

Additional observations from a re-analysis of the deposited data

How the results depend on the processing

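No gene of the 10 changed direction under any of the 16 alternatives, and the 7 genes with adjusted p under 0.05 had it in all of them. The number past both limits was 2 in each alternative that kept all libraries and ranged from 1 to 3 with each library left out: it was 1 (*Nr4a1*) without mutant replicate 1 and without mutant replicate 4, and 3 (with *Egr2*) without mutant replicate 3. *Egr1* and *Btg2* passed only with a block. With the replicate number as a block, *Egr1* had -0.33 (adjusted p = 0.0243 by edgeR) and *Btg2* -0.29 (adjusted p = 0.0404), and with the label prefix -0.33 (0.0283) and -0.29 (0.0289). The block thus moved the count under 0.05 from 7 to 9. Across genes, deviations of same-numbered mutant and wild-type libraries correlated at 0.201, 0.21, 0.29 and 0.0241 for numbers 1 to 4. Only that of number 4 was under 0.1. Mutant libraries 1 and 2 also correlated with the other wild-type library of their prefix, at 0.165 and 0.253. Mutant library 4 was nearest to wild-type library 3, of another prefix, at 0.384. No label ties a number to a litter, so the fit without a block was kept as the main one. The study itself matched pups within litters. Left-out libraries kept the log2 fold change of *Egr1* between -0.38 and -0.14 and that of *Btg2* between -0.35 and -0.14. The largest shift of the median of all genes was -0.06, with upper quartile factors. Depth did not limit the 10 genes, the rarest of which, *Egr2*, had 501 or more normalized counts in each library.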
